A study of Eutrema salsugineum with 41 samples.

Results

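Thhalv10023846m, Thhalv10029199m and Thhalv10020080m are the 3 genes of the salt-tolerant crucifer Eutrema salsugineum that the study listed as IBM1-like, and they were taken here as listed, as 3 of the 26352 genes in its expression table. They were not chosen here for their levels, although the study's list also gives their expression status and earlier results of these data were known. RNA was sequenced from the cauline leaves of 10 single plants of the Shandong ecotype, with 1 library per plant. Of these, 9 AtCMT3 plants carry the genomic sequence of the A. thaliana gene CMT3 under its own A. thaliana promoter, introduced by floral dip and selected with BASTA, and the remaining plant is the wild type without the transgene. The AtCMT3 plants come from 3 transformed lineages: AtCMT3-L1 in generations T3, T4 and T5, AtCMT3-L2 in generations T3, T4, T5 and T6, and a pair of T2 plants of AtCMT3-L3, called AtCMT3-L3T2 and AtCMT3-L3T2b. Plants of 1 lineage share their transformation, so the 9 plants are not 9 independent events, and wild type has 1 library, so a difference from wild type has no replicate check.

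IBM1 (INCREASED BONSAI METHYLATION 1) is a JmjC-domain histone demethylase that, in A. thaliana, removes methyl groups from lysine 9 of histone H3 in the bodies of transcribed genes. CMT3 binds histone H3 methylated at this lysine and methylates nearby cytosines in the CHG context, and the histone methyltransferase KYP in turn binds CHG methylation and methylates the histone, so IBM1 acts on a mark that both depend on. In A. thaliana the IBM1 gene itself carries a methylated intron that is needed for its full-length transcript. E. salsugineum lacks CMT3, and the study asked what follows when the enzyme is put back. The paper already reports that this species has expressed orthologs of IBM1. It proposes that they could destabilize H3K9 methylation over genes that gained CHG methylation. The comparisons here describe the levels of the IBM1-like genes in these leaves and whether these levels moved with the transgene. The table gives 1 value per gene model, so transcript forms of these genes cannot be told apart, and in whole leaves fewer cells that express a gene and less RNA per cell cannot be told apart.

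In 5 libraries, those of the T3 and T4 plants and of wild type, the deposited column adds up to between 676021 and 695872, as FPKM values (fragments per kilobase and 1000000 mapped fragments) can. In the 5 libraries of the T2, T5 and T6 plants it adds up to 1000000, as TPM values (transcripts per 1000000, a level per transcript length) do. All libraries were scaled to a sum of 1000000 and are given in TPM. Unit and generation thus separate the same libraries and cannot be told apart. Between 19270 and 20122 genes were above 0 per library, and the reads behind a single value are unknown. The transgene was lowest in AtCMT3-L2T6, at 5.39 TPM, and highest in AtCMT3-L3T2b, at 372 TPM, against 0.225 TPM in wild type. Wild type carries no AtCMT3, so its value is not a transgene level. The 23.9-fold of AtCMT3-L2T6 over wild type is thus a ratio to stray signal. The paper describes silencing of the transgene in AtCMT3-L2T5 and AtCMT3-L2T6. Leaf markers were not checked here, since none of those chosen could be matched to an identifier of the table.

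All 3 IBM1-like genes had a value above 0 in each of the 10 libraries, and they kept the same order in all 10, with Thhalv10023846m the highest, Thhalv10029199m in the middle and Thhalv10020080m the lowest. Over the AtCMT3 plants Thhalv10023846m averaged 12.6 ± 2.5 TPM (SD, n = 9), against 9.89 TPM in wild type. Thhalv10029199m averaged 4.12 ± 0.696 TPM in the AtCMT3 plants (SD, n = 9), against 5.14 TPM in wild type. Thhalv10020080m averaged 0.499 ± 0.296 TPM in the AtCMT3 plants (SD, n = 9), against 0.243 TPM in wild type. The spreads of neighbours in this order did not meet, since the lowest TPM value of Thhalv10023846m in any library, 9.59, lay above the highest of Thhalv10029199m, 5.14, whose lowest, 3.05, lay above the highest of Thhalv10020080m, 1.14.

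Thhalv10023846m was a gene of middle expression. It stood at 9.59, 18.3 and 11.1 TPM in AtCMT3-L1 plants of generations T3, T4 and T5, at 12.2, 13, 10.5 and 13.7 TPM in AtCMT3-L2 plants of generations T3 to T6, and at 12.6 and 12.1 TPM in AtCMT3-L3T2 and AtCMT3-L3T2b, against 9.89 TPM in wild type. AtCMT3-L1T4 stood alone at the top, 1.33-fold above the next plant, and the wild-type level fell inside the range of the AtCMT3 plants, above AtCMT3-L1T3 and below the other 8. Its mean level over all libraries ranked 11185 among the 21466 genes above 0 in any library, and within single libraries it exceeded between 37.3% and 56.6% of the genes above 0.

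Thhalv10029199m had the smallest spread of the 3 in TPM, with a coefficient of variation of 17.3% over the 10 libraries, against 20.4% for Thhalv10023846m and 61.4% for Thhalv10020080m, but its place before Thhalv10023846m rested on 1 library. Without AtCMT3-L1T4 the coefficient was 17% for Thhalv10029199m and 12.4% for Thhalv10023846m. Thhalv10029199m stood at 4.54, 5.12 and 4.44 TPM in AtCMT3-L1 plants of generations T3, T4 and T5, at 3.37, 4.44, 3.34 and 3.05 TPM in AtCMT3-L2 plants of generations T3 to T6, and at 4.56 and 4.21 TPM in AtCMT3-L3T2 and AtCMT3-L3T2b, against 5.14 TPM in wild type. All 9 AtCMT3 plants were thus below wild type, but the wild-type level exceeded that of the closest of them, AtCMT3-L1T4, by only 0.552%. Wild type was the highest of the 10 libraries for 7.05% of all genes above 0 in every library. Among the 500 genes nearest to Thhalv10029199m in mean log2 level, wild type was the highest for 2.6%. The place of 1 library at the end of such an order cannot reach a one-sided p below 0.10. In the values as deposited, with the mixed units, AtCMT3-L1T4 and 3 of the plants deposited in TPM lay above wild type. The mean of the gene ranked 15030 of 21466, and it exceeded between 20.9% and 28.1% of the genes above 0 in single libraries.

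Thhalv10020080m was near the bottom of the genes above 0. It stood at 0.468, 0.742 and 0.612 TPM in AtCMT3-L1 plants of generations T3, T4 and T5, at 0.297, 1.14, 0.239 and 0.280 TPM in AtCMT3-L2 plants of generations T3 to T6, and at 0.253 and 0.459 TPM in AtCMT3-L3T2 and AtCMT3-L3T2b, against 0.243 TPM in wild type. AtCMT3-L2T4 was the highest, at 1.54 times the next plant, AtCMT3-L1T4, and 8 of 9 plants were above wild type while AtCMT3-L2T5 was just below it. The wild-type level was close to the 0.225 TPM of AtCMT3 in wild type, a gene that wild type does not carry. Levels this low were thus not told apart from stray signal, and folds and ratios that divide by them are uncertain. The mean of the gene ranked 18445 of 21466, and it exceeded between 4.43% and 12.3% of the genes above 0 in single libraries. The highest and the lowest library differed 4.76-fold for this gene, against 1.91-fold for Thhalv10023846m and 1.69-fold for Thhalv10029199m.

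**Figure D1:**
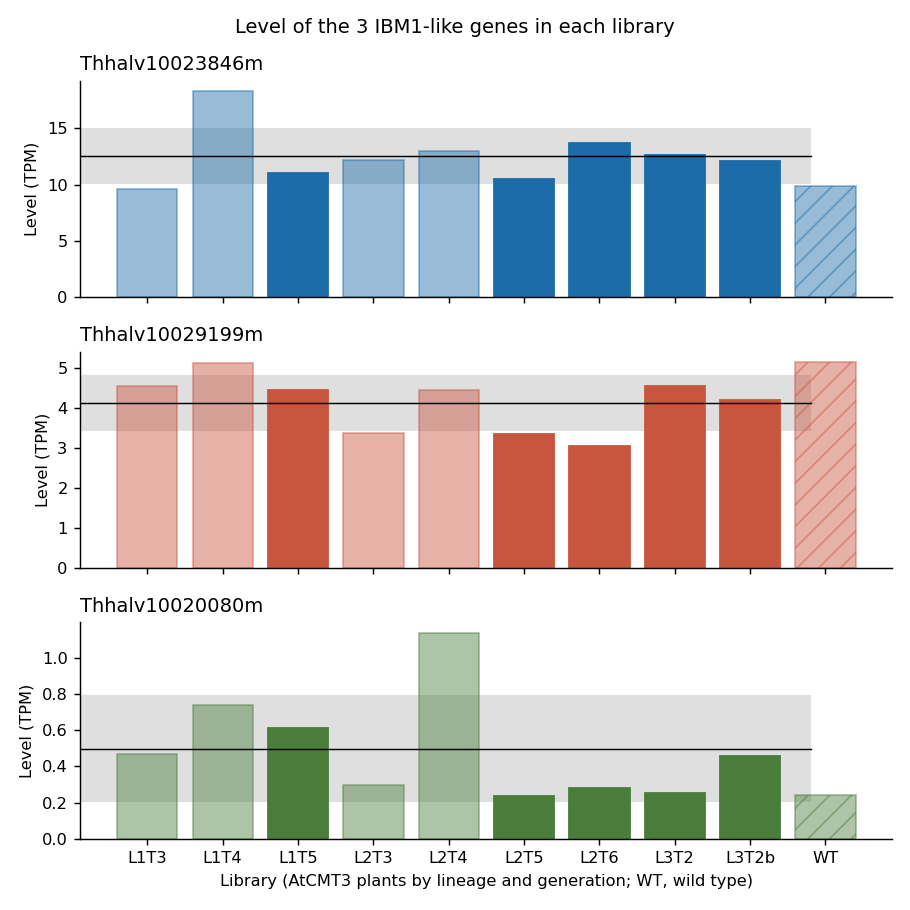
Level of Thhalv10023846m (top), Thhalv10029199m (middle) and Thhalv10020080m (bottom) in TPM, 1 bar per library, with the 9 AtCMT3 plants left of wild type (WT, hatched); pale bars are the libraries deposited in FPKM, and the line and grey band are the mean and SD of the AtCMT3 plants. The bar of AtCMT3-L1T4 stands out at 18.3 TPM in the top panel and that of AtCMT3-L2T4 at 1.14 TPM in the bottom panel, while wild type is the highest bar of the middle panel by 0.552%.

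How the 3 genes share their summed level does not depend on the scale of a library. The sum of the 3 lay between 14.1 and 24.2 TPM in the AtCMT3 plants, with a median of 16.7 TPM, against 15.3 TPM in wild type. Thhalv10023846m made up 73.0% ± 4.51 of it in the AtCMT3 plants (SD, n = 9), against 64.7% in wild type, where its share was below that of each AtCMT3 plant. Thhalv10029199m made up 24.2% ± 3.89 in the AtCMT3 plants (SD, n = 9), against 33.7% in wild type. Thhalv10020080m made up between 1.45% and 6.12% in the AtCMT3 plants, against 1.59% in wild type. The ratio of Thhalv10023846m to Thhalv10029199m was 2.11, 3.58 and 2.49 in AtCMT3-L1 plants of generations T3, T4 and T5, 3.61, 2.93, 3.15 and 4.5 in AtCMT3-L2 plants of generations T3 to T6, and 2.77 and 2.87 in AtCMT3-L3T2 and AtCMT3-L3T2b, against 1.92 in wild type. All 9 AtCMT3 plants were above wild type in this ratio, AtCMT3-L1T3 by the least and AtCMT3-L2T6 by the most. With 1 wild-type library this is a description, and when Thhalv10023846m was divided by each of the other genes above 0 in every library, wild type was the lowest of the 10 libraries for 23.2% of 17639 genes. When each of these genes was divided by Thhalv10029199m, wild type was the lowest for 22.7%. The ratio of Thhalv10029199m to Thhalv10020080m likewise was between 3.90 and 18 in the AtCMT3 plants, against 21.2 in wild type. The wild-type ratio divides by 0.243 TPM of Thhalv10020080m, a level not told apart from stray signal.

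**Figure D2:**
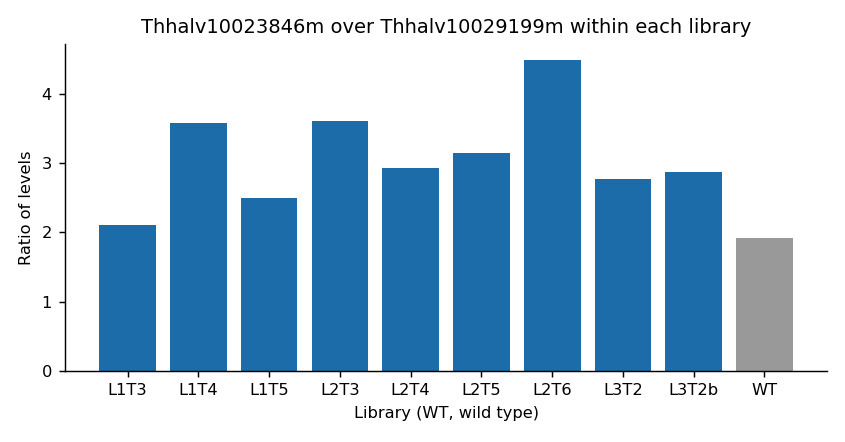
Ratio of the TPM level of Thhalv10023846m to that of Thhalv10029199m within each library, with the 9 AtCMT3 plants left of wild type (WT, grey). The bars of the AtCMT3 plants lie between 2.11 and 4.5, and the wild-type bar, at 1.92, is the lowest.

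The change of a gene is given as the log2 of its TPM in an AtCMT3 plant over its TPM in wild type, and a gene was called up or down at or past 2 or -2, the cutoff of the study's methods. Of the 27 values, 3 genes in 9 plants, 1 was past the cutoff, which is 3.70%, beside 4.81% of the values of all genes above 0 in every library. That value was Thhalv10020080m in AtCMT3-L2T4, with a log2 fold change of 2.23. In this plant 6.48% of all 19033 genes above 0 in both libraries were called up, and 27.8% of the 500 genes nearest to Thhalv10020080m in mean log2 level were. With a pseudocount of 0.1 the log2 fold change of Thhalv10020080m in AtCMT3-L2T4 was 1.86, and with a pseudocount of 1 it was 0.78, so the call ended with both. The other 8 values of this gene lay between -0.02 in AtCMT3-L2T5 and 1.61 in AtCMT3-L1T4, with a median over all 9 plants of 0.92.

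Thhalv10023846m had log2 fold changes between -0.04 in AtCMT3-L1T3 and 0.89 in AtCMT3-L1T4, with a median of 0.30, which is 1.23-fold. Those of Thhalv10029199m lay between -0.75 in AtCMT3-L2T6 and -0.01 in AtCMT3-L1T4, with a median of -0.21, which is 0.862-fold. Neither gene was called in any plant. Beside the 500 genes of like level, the changes of Thhalv10023846m lay between the 45th and the 90.2nd percentile, those of Thhalv10029199m between the 8.2nd and the 40.4th, and those of Thhalv10020080m between the 39.2nd and the 82.0th, so none of the 27 values fell outside the central 90% of genes of its own level. All 9 log2 values of a gene share the single wild-type library as denominator. For Thhalv10020080m this denominator, 0.243 TPM, was close to the 0.225 TPM of AtCMT3 in wild type, which carries no AtCMT3.

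**Figure D3:**
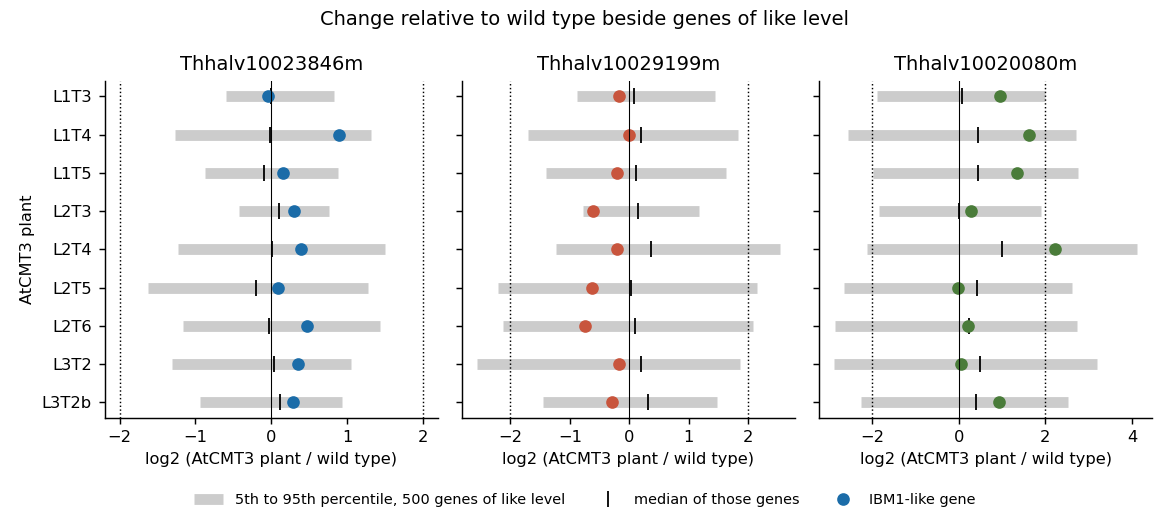
Log2 fold change of each IBM1-like gene (points) in the 9 AtCMT3 plants, from AtCMT3-L1T3 at the top to AtCMT3-L3T2b at the bottom, relative to wild type; grey bars span the 5th to the 95th percentile of 500 genes of like level, ticks are their median and dotted lines the cutoff at 2 and -2. All points lie inside the grey bars, and only Thhalv10020080m in AtCMT3-L2T4, at 2.23, is past a dotted line.

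TUB4 (Thhalv10003210m), a beta-tubulin that the study used as the reference gene in its qRT-PCR, gives a further scale. TUB4 lay between 57.3 and 83.7 TPM in the AtCMT3 plants other than AtCMT3-L2T6, against 70.3 TPM in wild type, but stood at 171 TPM in AtCMT3-L2T6. Relative to TUB4 the log2 fold change in AtCMT3-L2T6 was -0.81 for Thhalv10023846m, -2.04 for Thhalv10029199m and -1.07 for Thhalv10020080m, where the values scaled to the library sum were 0.47, -0.75 and 0.21. In AtCMT3-L2T6 the direction of Thhalv10023846m and of Thhalv10020080m thus depended on the scale, and Thhalv10029199m passed the cutoff only relative to TUB4. Relative to TUB4, Thhalv10029199m was below wild type in all 9 AtCMT3 plants. With the median log2 ratio of all genes set to 0, a shift of at most 0.20 in size, it was above wild type in AtCMT3-L1T4, by 0.05, and below it in the other 8.

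The spread of the genes was set against that of the 500 genes nearest in mean log2 level, among genes above 0 in all 10 libraries. The SD of the log2 level over the 10 libraries was 0.27 for Thhalv10023846m, where the genes of like level had a median of 0.33, and 38.0% of them had a smaller SD. Thhalv10029199m had an SD of 0.26, where the genes of like level had a median of 0.53, and 10% of them had a smaller SD. Thhalv10020080m had an SD of 0.78, where the genes of like level had a median of 1.04, and 22.8% of them had a smaller SD. All 3 genes were thus less variable than the median gene of their level, including Thhalv10020080m, which had the largest coefficient of variation of the 3 in TPM. The lowest levels of Thhalv10020080m were not told apart from stray signal, so its SD is uncertain. A pseudocount of 1 raised its 22.8% to 39.6%. For Thhalv10023846m a large part of the spread was 1 library, since without AtCMT3-L1T4 only 11.6% of the genes of like level had a smaller SD.

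**Figure D4:**
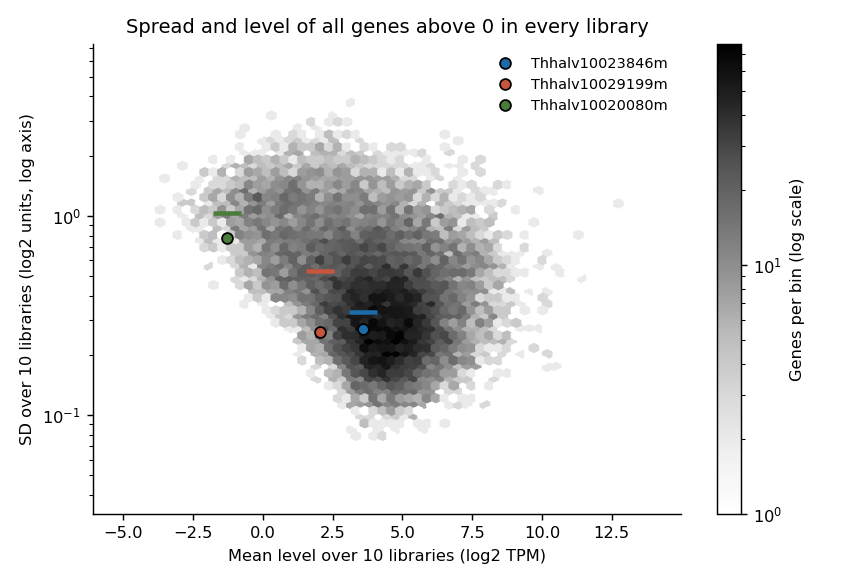
SD of the log2 TPM level over the 10 libraries (log axis) against the mean log2 TPM level for the 17643 genes above 0 in every library, shaded by the number of genes per bin; coloured points are the IBM1-like genes and horizontal dashes of the same colour the median SD of the 500 genes of like level. Each point lies below its dash, at 0.27 against 0.33 for Thhalv10023846m, 0.26 against 0.53 for Thhalv10029199m and 0.78 against 1.04 for Thhalv10020080m.

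The levels of the 3 genes were then compared with each other across the 10 libraries, as 3 pairs. For Thhalv10023846m and Thhalv10029199m, Pearson's r was 0.14 (permutation p = 0.724) and Spearman's rho was -0.10 (permutation p = 0.784). For Thhalv10023846m and Thhalv10020080m, r was 0.39 (permutation p = 0.239) and rho was 0.37 (permutation p = 0.299). For Thhalv10029199m and Thhalv10020080m, r was 0.37 (permutation p = 0.296) and rho was 0.20 (permutation p = 0.580). No pair passed 0.05 before adjustment, in two-sided tests with 100000 permutations. Without the 2 libraries farthest from the median of the gene named first, r was -0.41, 0.30 and 0.14 for the pairs in this order, and with deviations taken within each deposited unit it was 0.09, 0.38 and 0.25. The sign for Thhalv10023846m and Thhalv10029199m rested on AtCMT3-L1T4, in which both were at their highest among the AtCMT3 plants, since r was -0.46 without it.

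The question closest to the design is whether the IBM1-like genes followed the level of the transgene. Over the 9 AtCMT3 plants, the Pearson correlation with the AtCMT3 level was -0.12 for Thhalv10023846m, 0.24 for Thhalv10029199m and 0.09 for Thhalv10020080m, with exact permutation p of 0.730, 0.536 and 0.806. Adjusted over the 19770 genes tested with the Benjamini-Hochberg method, these exact permutation p were 0.898, 0.803 and 0.929. Spearman's rho was -0.07, 0.33 and 0.18 for the genes in the same order, with exact permutation p of 0.880, 0.385 and 0.644 and adjusted values of 0.954, 0.660 and 0.829. None of the 3 genes was called, and the exact permutation test called 0% of all genes at an adjusted p below 0.05, although 2640 genes that rose with AtCMT3 and 330 that fell had an unadjusted exact p below 0.05, which is 13.4% and 1.67% of the genes. The median r of all genes was 0.19, and 83.1%, 66.3% and 87.6% of all genes had an r farther from 0 than Thhalv10023846m, Thhalv10029199m and Thhalv10020080m had.

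Single plants decided the signs of these weak correlations. Without AtCMT3-L1T4 the r of Thhalv10023846m was 0.19. Without AtCMT3-L2T6, which had both the least AtCMT3 and the least Thhalv10029199m of the AtCMT3 plants, the r of Thhalv10029199m was -0.02. Without AtCMT3-L2T4 the r of Thhalv10020080m was -0.07, and without AtCMT3-L2T6 it was -0.04. On log2 (TPM + 0.1) values of all 9 plants, r was -0.18 for Thhalv10023846m, 0.52 for Thhalv10029199m and 0.25 for Thhalv10020080m, with exact permutation p of 0.598, 0.145 and 0.521. Without AtCMT3-L3T2 and AtCMT3-L3T2b, which are farthest from the median AtCMT3 level, r was -0.14 for Thhalv10023846m, 0.23 for Thhalv10029199m and 0.57 for Thhalv10020080m, with exact permutation p of 0.769, 0.606 and 0.174 over 7 plants. With deviations taken within each deposited unit, r was -0.09, 0.32 and 0.20 in that order, with exact permutation p within units of 0.743, 0.442 and 0.500. The plant with the most transgene RNA, AtCMT3-L3T2b, stood at 12.1 TPM for Thhalv10023846m, within the SD of the mean of all AtCMT3 plants, and so did its values of Thhalv10029199m, at 4.21 TPM, and Thhalv10020080m, at 0.459 TPM.

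**Figure D5:**
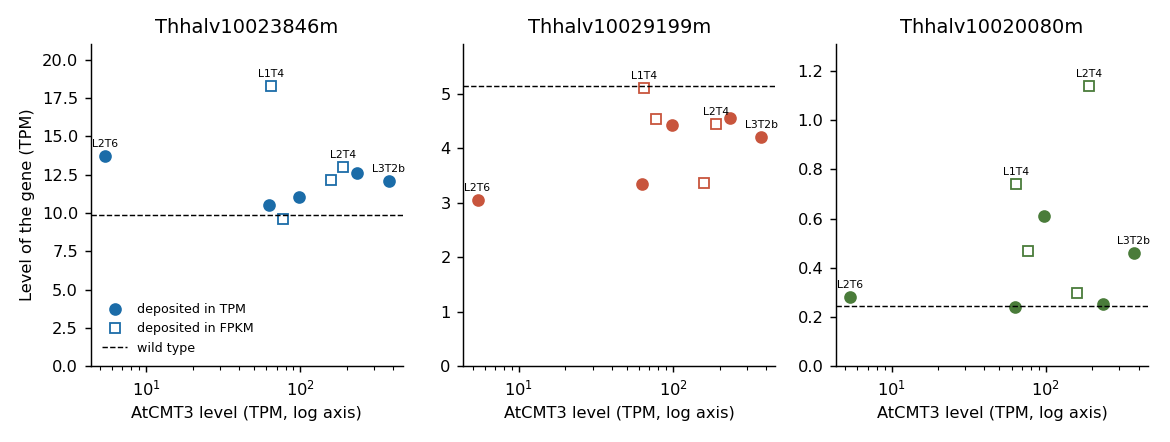
TPM level of each IBM1-like gene against the TPM level of AtCMT3 (log axis) in the 9 AtCMT3 plants; filled circles are plants deposited in TPM, open squares those deposited in FPKM, and the dashed line is wild type; the plants AtCMT3-L2T6, AtCMT3-L1T4, AtCMT3-L2T4 and AtCMT3-L3T2b are labelled. The points show no common trend across AtCMT3 levels from 5.39 to 372 TPM. From left to right, r was -0.12, 0.24 and 0.09 on linear TPM values. It was -0.18, 0.52 and 0.25 on log2 (TPM + 0.1) values.

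AtCMT3-L2 and AtCMT3-L1 were compared at the 3 generations that both have, T3, T4 and T5, with 1 plant for each combination of lineage and generation. Thhalv10029199m was lower in AtCMT3-L2 than in AtCMT3-L1 at each of them, at 0.743-fold, 0.868-fold and 0.753-fold, as were 10.6% of all genes above 0 in every library. For Thhalv10023846m AtCMT3-L2 was at 1.27-fold, 0.712-fold and 0.953-fold of AtCMT3-L1 for the same generations, and for Thhalv10020080m at 0.633-fold, 1.54-fold and 0.391-fold, so neither kept a direction. In a limma fit over these plants with generation as a block, a test added after the data were seen, the log2 difference of AtCMT3-L2 minus AtCMT3-L1 was -0.07 ± 0.23 (SE) for Thhalv10023846m, -0.34 ± 0.24 for Thhalv10029199m and -0.34 ± 0.54 for Thhalv10020080m. Each lineage descends from 1 transformation, so the SE and p of this fit describe spread between these plants and not between transformed lineages. Unadjusted p of limma were 0.772, 0.218 and 0.557, and none of the 3 genes was called at an adjusted p below 0.05, nor was any other gene, higher or lower (0% each), with 1.17% of genes higher and 1.21% lower in AtCMT3-L2 at an unadjusted p below 0.05. Generations were not tested. In both lineages all 3 genes were higher in T4 than in T3, by 1.91-fold in AtCMT3-L1 and 1.07-fold in AtCMT3-L2 for Thhalv10023846m, 1.13-fold and 1.32-fold for Thhalv10029199m, and 1.58-fold and 3.84-fold for Thhalv10020080m. In both lineages all 3 were also lower in T5 than in T4, at 0.604-fold in AtCMT3-L1 and 0.809-fold in AtCMT3-L2 for Thhalv10023846m, 0.867-fold and 0.753-fold for Thhalv10029199m, and 0.824-fold and 0.210-fold for Thhalv10020080m. Of all genes above 0 in every library, 32.3% were higher in T4 than in T3 in both lineages, 37.9% were lower in T5 than in T4 in both, and 19.6% were both, so these directions were frequent. These directions held with the median log2 ratio of all genes set to 0, but not all of them held relative to TUB4, where Thhalv10029199m in AtCMT3-L1 was at 6.15% of TUB4 in T3, 6.11% in T4 and 6.17% in T5, in AtCMT3-L2 at 5.83% in both T4 and T5, and Thhalv10023846m in AtCMT3-L2 at 17.1% in T4 and 18.4% in T5. The T4 and T5 plants of both lineages were deposited in different units, while the T3 and T4 plants were all deposited in FPKM. Scaling to a common sum puts all of them on the same measure. Any other difference in handling that goes with the unit was not tested. AtCMT3-L3T2b and AtCMT3-L3T2, which share lineage and generation, differed by 0.958-fold for Thhalv10023846m, 0.923-fold for Thhalv10029199m and 1.81-fold for Thhalv10020080m, and AtCMT3 itself was 1.59-fold higher in AtCMT3-L3T2b.

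Because the deposited unit divides the libraries, the genes were compared between the 5 libraries deposited in TPM and the 5 deposited in FPKM, with limma on log2 (TPM + 0.1) for 19775 genes of E. salsugineum with a mean of at least 0.1 TPM. Thhalv10023846m averaged 12 ± 1.26 TPM in the libraries deposited in TPM and 12.6 ± 3.51 TPM in those deposited in FPKM (SD, n = 5 each), a log2 difference of -0.03 ± 0.19 (SE). Thhalv10029199m averaged 3.92 ± 0.679 TPM in the libraries deposited in TPM and 4.52 ± 0.720 TPM in those deposited in FPKM (SD, n = 5 each), a log2 difference of -0.20 ± 0.19 (SE). Thhalv10020080m averaged 0.369 ± 0.162 TPM in the libraries deposited in TPM and 0.578 ± 0.369 TPM in those deposited in FPKM (SD, n = 5 each), a log2 difference of -0.43 ± 0.44 (SE). The adjusted p of limma over all genes were 0.970, 0.817 and 0.828, and the exact permutation p of the 3 genes, two-sided over 252 splits, were 0.873, 0.198 and 0.286, so none of the 3 was called. Among all genes limma called 0% higher and 0.0354% lower in the libraries deposited in TPM, with 3.05% and 6.12% at an unadjusted p below 0.05.

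For each gene the 2 genes most like it were those with the highest Pearson correlation of log2 TPM levels over the 10 libraries, among 16995 genes above 0 in all libraries with a mean of at least 1 TPM. They are given as a description, since they were the most alike of so many, and the libraries share their unit and lineage. For Thhalv10023846m they were Thhalv10019924m (r = 0.92), which had between 13.8 and 19.5 TPM in the AtCMT3 plants and 13 TPM in wild type, and Thhalv10001975m (r = 0.92), which had between 14.6 and 56.9 TPM in the AtCMT3 plants and 18.1 TPM in wild type. Both were highest in AtCMT3-L1T4, as Thhalv10023846m was. For Thhalv10029199m they were Thhalv10018370m (r = 0.92), with between 2.44 and 4.96 TPM in the AtCMT3 plants and 4.90 TPM in wild type, and Thhalv10007085m (r = 0.90), with between 11.5 and 16.1 TPM in the AtCMT3 plants and 15.1 TPM in wild type. The study pairs Thhalv10018370m with the A. thaliana locus of APC6, a subunit of the anaphase-promoting complex. For Thhalv10020080m they were Thhalv10011046m (r = 0.92), with between 0.831 and 1.60 TPM in the AtCMT3 plants and 0.993 TPM in wild type, and Thhalv10020184m (r = 0.90), with between 0.650 and 1.75 TPM in the AtCMT3 plants and 0.588 TPM in wild type.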

How the data were processed

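The authors prepared stranded mRNA libraries, trimmed the reads with Trimmomatic, mapped them with HISAT2 to version v1.0 of the E. salsugineum genome and took gene values from StringTie. The submitters' processing notes give HISAT2 2.1.0 and StringTie 1.3.3b. How reads shared by similar genes were assigned is not given in the sources used here. The authors named the deposited values FPKM. By their sums, 5 columns that the authors deposited hold FPKM and 5 hold TPM, whereas the tests had been planned for FPKM throughout. Columns were brought to a common sum of 1000000. Depth per value is unknown, so no counting interval is given.

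Log2 ratios used no pseudocount. Spread was set against 500 genes of like level, and correlations were tested by permutation. Genes with a mean of at least 0.1 TPM entered the scans, with limma on log2 (TPM + 0.1) and Benjamini-Hochberg adjustment at 0.05. The genes named are the IBM1-like genes, AtCMT3, TUB4 and the 2 genes most like each IBM1-like gene. The members, lists and tests were chosen with earlier results of these data known. P-values measure the spread between single plants.

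Alternatives were the values as deposited, median-ratio library factors, pseudocounts of 0.1 and 1, other cutoffs and numbers of like genes, log2 values, deviations within a unit and leaving out each plant. The lineages were compared with limma on the same scale, with generation as a block. The exact correlation test and limma were tested on simulated data. R 4.3.3 with limma 3.58.1 and Python 3.11.15 with scipy 1.17.1, pandas 2.3.3, numpy 2.4.6 and matplotlib 3.10.9 were used. The table's identifiers matched none of the annotation at hand, so neither gene positions nor sequences are given, and the H3K9me2 ChIP-seq reads over these genes were not analysed here. The bisulfite libraries and the comparisons of methylation were not used here.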

Additional observations from a re-analysis of the deposited data

Results flagged for a closer look

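Thhalv10023846m in AtCMT3-L1T4 stood apart from the other AtCMT3 plants, with a gap to the next plant of 0.525 of the range of the 9 plants, past the critical value of Dixon's test. The summed level of the 3 IBM1-like genes did the same in AtCMT3-L1T4, with 0.553, and holds Thhalv10023846m as its largest part. TUB4 (Thhalv10003210m) stood apart in AtCMT3-L2T6, with 0.768. Chance flags about 1 in 20 such groups. The highest of the 9 plants stood apart for 7.61% of all genes above 0 in every library, in AtCMT3-L1T4 for 0.136% and in AtCMT3-L2T6 for 1.39%. These shares leave out groups whose lowest plant stood apart, so they are not directly comparable with the 1 in 20.

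Between T3 and T5, Thhalv10023846m changed by -0.21 in AtCMT3-L2 and by 0.21 in AtCMT3-L1 on the log2 scale, which are opposite directions. They were not opposite with the median log2 ratio of all genes set to 0, at 0.04 in AtCMT3-L2 and 0.27 in AtCMT3-L1, nor relative to TUB4, at 0.22 and 0.24. Thhalv10020080m likewise changed by -0.31 in AtCMT3-L2 and by 0.39 in AtCMT3-L1, with -0.06 and 0.45 where the median was set to 0, but relative to TUB4 the changes were 0.11 and 0.42, in the same direction. Neither difference was tested, since each value is 1 plant over 1 plant, and the T5 plants were deposited in TPM and the T3 plants in FPKM.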

How the results depend on the processing

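With the values as deposited, the median log2 fold change of Thhalv10023846m was 0.70 (0.30 as reported) and its correlation with AtCMT3 was 0.16, a reversed sign. As deposited, plants in TPM are divided by wild type in FPKM, and both genes of the correlation mix these units. With median-ratio library factors the correlation of Thhalv10029199m with AtCMT3 was -0.0056 and the log2 difference of Thhalv10023846m between units was 0.0011, both with a reversed sign. Among genes with a mean of at least 1 TPM, Thhalv10023846m exceeded 36.3% (47.9% among genes above 0) and Thhalv10029199m 14.4% (30.0%), while Thhalv10020080m was below that mean. The number of plants in which Thhalv10020080m was past the cutoff, 1 as reported, was 0 with either pseudocount and 3 with a cutoff of 1, and for Thhalv10029199m it was 1 relative to TUB4, an alternative chosen after seeing the data. With a pseudocount of 1, 39.6% of the genes of like level had a smaller SD than Thhalv10020080m. A minimum mean of 1 TPM removes only genes below Thhalv10023846m and Thhalv10029199m, so their percentages fall by construction. Likewise a pseudocount moves log2 fold changes toward 0, and a lower cutoff cannot call fewer plants. Apart from these effects and the mix of units in the values as deposited, the cause of the shifts was not tested. Without the 2 libraries farthest from the median, the correlation of Thhalv10023846m with Thhalv10029199m was -0.41.

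Leaving out each plant in turn gave correlations between Thhalv10023846m and Thhalv10029199m of -0.46 to 0.34, correlations with AtCMT3 of -0.25 to 0.19 for Thhalv10023846m, -0.021 to 0.46 for Thhalv10029199m and -0.075 to 0.21 for Thhalv10020080m, unit differences of Thhalv10023846m of -0.12 to 0.11, and 0 to 1 plants past the cutoff for Thhalv10020080m. Of the remaining values under other settings, 98 were counted as unchanged, and 190 were when a plant was left out. Being counted as unchanged allowed a change in size, and for spreads and mean levels it did not refer to direction or threshold. The count included the spread of Thhalv10023846m without AtCMT3-L1T4, where 11.6% of the genes of like level had a smaller SD, against 38.0% with all libraries. The comparison of AtCMT3-L2 with AtCMT3-L1 pairs plants by generation, and without this replicate block the log2 differences were -0.07, -0.34 and -0.34, with unadjusted p of limma of 0.811, 0.240 and 0.619 for Thhalv10023846m, Thhalv10029199m and Thhalv10020080m, so no call changed. Comparisons with wild type could not be paired, since it has 1 library. The alternatives for H3K9me2 over the genes were not run, since the genes have no positions here.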
